A study of Mus musculus with 8 samples.

Results

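The genes of voltage-gated sodium channels, voltage-gated calcium channels, TRP cation channels, HCN channels and the NALCN leak channel were compared between mouse embryonic stem cells (ESC) and neural progenitor cells (NPC). Members were found by symbol: sodium channel subunits (Scn genes ending in a or b), calcium channel subunits (Cacna, Cacnb and Cacng genes), the TRPC, TRPM and TRPV families, the 4 Hcn genes and Nalcn. This gave 66 of 21202 named genes, of which 62 had an exon value and 66 an intron value. Cacnb2, Trpc5, Trpm1 and Trpm3 had an intron value alone. One gene found this way, Trpc4ap, encodes a protein that binds TRPC channels and is no channel itself. The mouse Scn2a gene carries the older symbol Scn2a1 here, which the symbol pattern did not take, and it is given with the partner genes.

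Both cell types share 1 origin. The ESC line F1-21.6 is a hybrid of the strains 129Sv and Cast/EiJ, kept on mitomycin C-treated embryonic fibroblasts in serum with leukaemia inhibitory factor, and the NPC were 1 clone differentiated from it. Each cell type had 2 biological replicates with 2 technical libraries each, 8 libraries of ribosome-depleted total RNA in all. The labels name no genotype difference between the groups, and they leave the NPC medium undescribed. As the NPC are a single clone, clone and cell type cannot be told apart, and no label says whether the biological replicates were separate cultures.

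Voltage-gated sodium channels carry the rapid upstroke of the action potential, and their beta subunits tune gating and act as adhesion molecules. Voltage-gated calcium channels turn depolarisation into calcium entry: an alpha1 subunit forms the pore, and alpha2delta and beta subunits bring it to the membrane. Most genes named as calcium channel gamma subunits encode TARPs, auxiliary proteins of AMPA-type glutamate receptors. TRP channels are cation channels opened by lipids, calcium, temperature or receptor signals, HCN channels are the pacemaker channels opened by hyperpolarisation, and NALCN carries a sodium leak current.

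Exon levels were deposited as 1 pooled RPKM value per cell type (reads per exon length and sequencing depth), so no spread between replicates stands beside them and the depth behind them is unknown. Levels are given in the order ESC, then NPC. Log2 fold changes of NPC over ESC and adjusted p-values for exons are those of the authors' deposited table. A gene is said to have risen or fallen where the adjusted p is under 0.05 and the mean of both levels is at least 1 RPKM. Intron levels were deposited per biological replicate. Reads recovered from them came to 6215540 for ESC replicate 1, 7002339 for ESC replicate 2, 6128016 for NPC replicate 1 and 5536538 for NPC replicate 2. For 1668 genes several intron lengths were possible and the longest was taken, so these sums are upper values. The depths that scale the replicates were 5767704, 6500767, 5792056 and 5186790 reads in the same order.

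Cell type markers matched the labels. All 4 ESC markers fell from a summed 2572 to 7.54 RPKM and all 4 NPC markers with a row rose from 55.9 to 11423 RPKM, in the authors' deposited table. Of 5 tested neuronal markers, 2 rose (Dcx and Map2) and 2 fell (Stmn2 and Tubb3). All 7 neuronal markers with an exon value, tested or not, summed to 298 and 477 RPKM. Astrocyte markers rose in 3 of 4 (4.80 to 481 RPKM), and 1 of 2 tested oligodendrocyte-lineage markers rose. The 5 oligodendrocyte-lineage markers with an exon value, tested or not, summed to 5.87 and 66.4 RPKM. Fibroblast markers, which the feeder cells express, fell in 4 of 5 (26.2 to 6.87 RPKM). Both tested markers of cardiac and smooth muscle fell. The 4 muscle markers with an exon value, tested or not, summed to 17.3 and 2.33 RPKM. In bulk RNA, fewer cells of a type and less RNA per cell cannot be told apart.

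Genes of olfactory, vomeronasal and taste receptors, which neither cell type is known to use, gave a floor for low values. Over 1461 such genes the 95th percentile of the exon level was 0.0830 RPKM in ESC and 0.797 RPKM in NPC. On introns, the pooled level of 190 of them was 0.102 and 0.0606 RPKM in the ESC replicates, 0.757 in NPC replicate 1 and 0.211 in NPC replicate 2. NPC replicate 1, which combines 2 technical libraries, stood apart from the other replicates in this respect. Its part in the pooled exon values of NPC was not tested.

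Most channel genes were expressed at low levels in both cell types. In ESC 19 of the 62 (30.6%) reached 1 RPKM, against 57.8% of all genes, and in NPC 23 (37.1%) did, against 57.2%. At 10 RPKM there were 2 in ESC (Trpm7 and Trpc4ap) and 6 in NPC, where Cacng7, Cacna2d1, Cacnb3 and Cacng4 joined them. The median channel gene had 0.287 RPKM in ESC and 0.604 in NPC, and the median of all genes was 2.44 and 2.94 RPKM. Measured against the receptor genes, 46 channel genes exceeded the 95th percentile in ESC and 25 in NPC, and 16 were at or below it in both.

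Of the 62 genes, 25 passed the filter on low values and had an adjusted p, so what follows covers those 25 and not the whole set. By the authors' deposited table, there were 14 that rose in NPC, 5 that fell and 6 that were not called. Across all 12509 genes tested the same way, 66.2% were called, 32.3% as higher and 33.9% as lower. The median log2 fold change of the 25 was 1.02, and the median over those 12509 genes was -0.07. Among the 25, 8 rose with a log2 fold change of 2 or more (15.8% of all genes tested), and 3 fell with one of -2 or less (14.8%). A gene enters the 25 by its mean over both cell types, which a high level in 1 of them can supply.

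**Figure D1:**
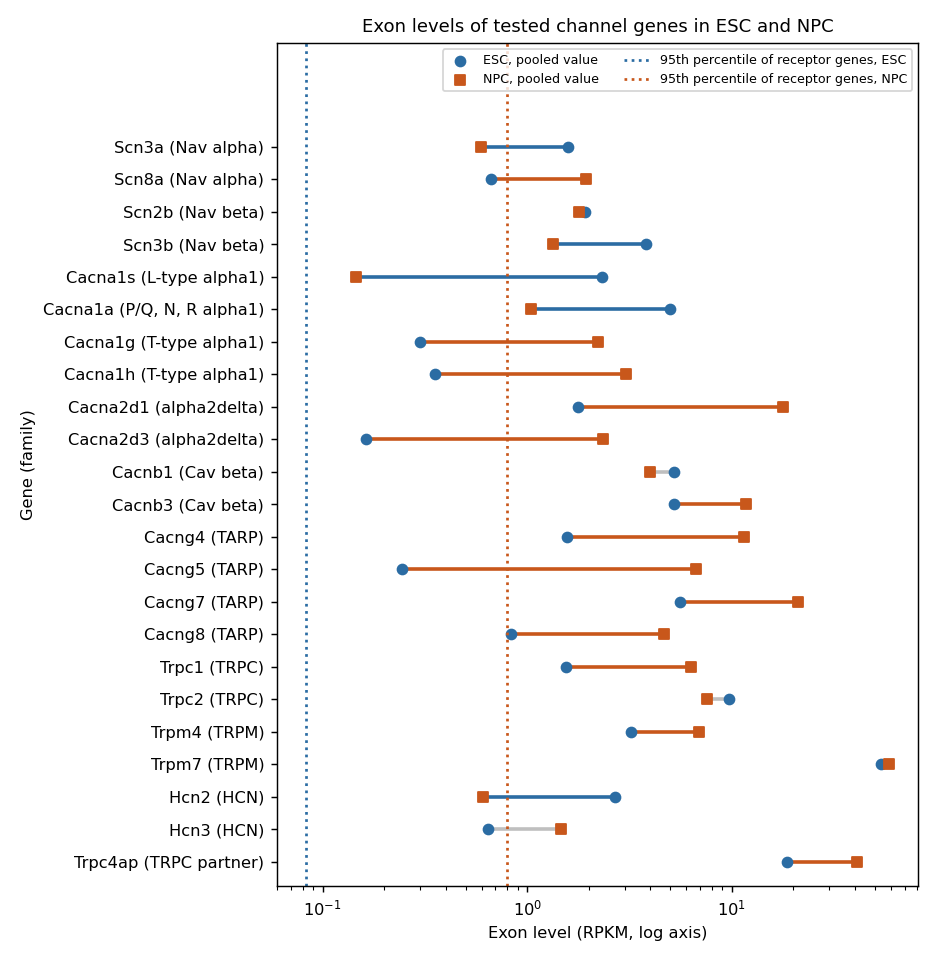
Exon levels of tested genes, ordered by family, on a log axis of RPKM. Circles are the pooled ESC value, squares the pooled NPC value, and the joining line is orange for genes that rose, blue for genes that fell and grey for genes not called; dotted lines mark the 95th percentile of receptor genes (0.0830 RPKM in ESC, 0.797 in NPC). Trpm7 stands at the far right in both cell types, and the 4 TARP genes all run from a lower ESC value to a higher NPC value.

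Pore-forming sodium channel subunits were low throughout. Summed over 9 genes, they amounted to 2.73 RPKM in ESC and 5.20 RPKM in NPC. Scn8a, which encodes the main sodium channel of axon initial segments and nodes in mature neurons, rose from 0.663 to 1.93 RPKM, a log2 fold change of 1.39 in the authors' deposited table (adjusted p = 0.00167). Scn3a, known as the embryonic brain sodium channel, fell from 1.58 to 0.597 RPKM, a log2 fold change of -1.66 in the same deposited table of the authors (adjusted p = 0.00907). The NPC level of Scn3a was below the 95th percentile of receptor genes, and that of Scn8a above it. Scn8a, under 1 RPKM in ESC, passed the filter through its NPC level. Scn3a, under 1 RPKM in NPC, passed it through its ESC level. The other 7 alpha subunits were under the filter.

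Of the beta subunits, Scn3b fell from 3.82 to 1.34 RPKM, a log2 fold change of -1.70 in the authors' deposited table (adjusted p = 0.000162). Scn2b had 1.92 and 1.79 RPKM and was not called in that deposited table of the authors (log2 fold change -0.32, adjusted p = 0.634). Sodium channel beta subunits are membrane proteins with a single immunoglobulin-like domain, which modulate the alpha subunit.

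Calcium channel alpha1 subunits added up to almost the same level in both cell types, 9.72 RPKM in ESC and 9.74 in NPC over 10 genes, with a different make-up. In ESC, Cacna1a supplied 51.1% of the sum and Cacna1s 23.9%, while the T-type genes supplied 7.31%. In NPC, T-type genes supplied 55.2%, Cacna1a 10.7% and Cacna1s 1.49%. These shares come from pooled values and carry no error.

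The falling alpha1 genes belong to high-voltage-activated channels. Cacna1a, the pore of the P/Q-type channel of presynaptic terminals, fell from 4.97 to 1.04 RPKM, a log2 fold change of -2.32 in the authors' deposited table (adjusted p = 4.74e-11). Cacna1s, the L-type channel of skeletal muscle, fell from 2.32 to 0.145 RPKM, a log2 fold change of -4.23 in the authors' deposited table (adjusted p = 2.18e-09). The Cacna1s level in NPC was within the range of receptor genes, and the gene passed the filter through its ESC level. In the GRCm38 annotation an antisense gene covers 18.9% of its exon bases, and the use of strand in counting was not given in the sources used here. All tested muscle markers fell with Cacna1s, and their part in its fall was not tested.

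Both rising alpha1 genes encode T-type channels, which open at small depolarisations. Each was under 1 RPKM in ESC and passed the filter through its NPC level. Cacna1g went from 0.298 to 2.22 RPKM, a log2 fold change of 2.76 in the authors' deposited table (adjusted p = 1.07e-07). Cacna1h went from 0.356 to 3.05 RPKM, a log2 fold change of 2.92 in the authors' deposited table (adjusted p = 4.22e-09). The third T-type gene, Cacna1i, was at 0.0565 and 0.105 RPKM, so the T-type sum of 0.711 and 5.38 RPKM rested on the other pair. Just under the filter, Cacna1b, the N-type channel of nerve terminals, had 0.423 and 1.54 RPKM (log2 fold change 1.70, adjusted p = 0.00354 in the authors' deposited table).

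**Figure D2:**
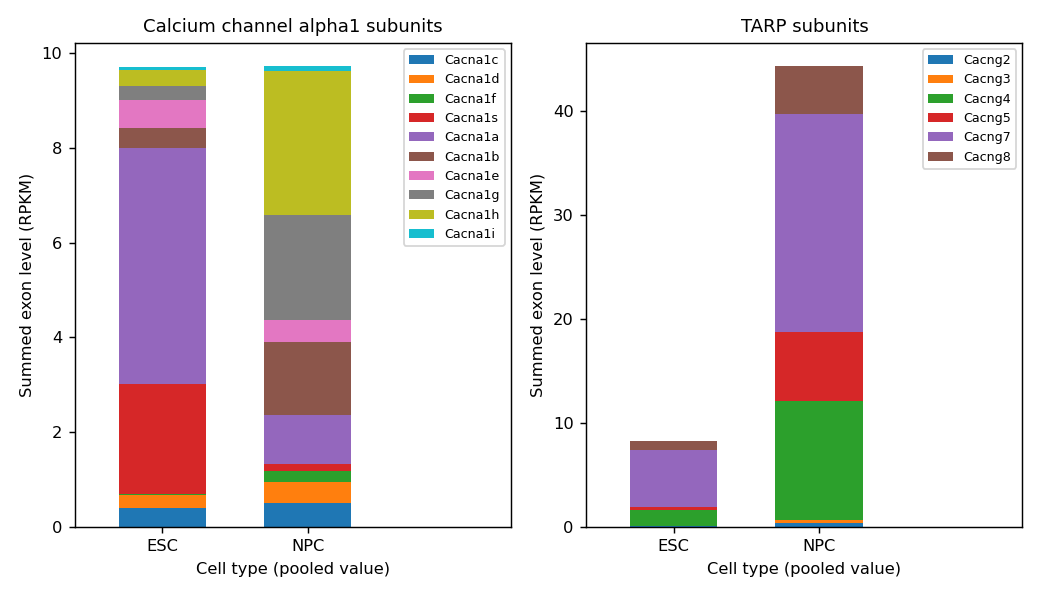
Summed exon levels in RPKM of the calcium channel alpha1 genes (left) and of the TARP genes (right) in ESC and NPC, each bar stacked by gene from pooled values without error. The alpha1 bars are nearly equal in height (9.72 and 9.74 RPKM) but differ in their segments, and the TARP bar is taller in NPC (44.4 against 8.25 RPKM).

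Among the subunits that carry alpha1 to the membrane, 3 of 4 tested genes rose, where 32.3% of all tested genes did. Cacna2d3, under 1 RPKM in ESC, passed the filter through its NPC level. Cacna2d1, an alpha2delta subunit and binding site of gabapentin-type drugs, rose from 1.77 to 17.8 RPKM, a log2 fold change of 3.17 in the authors' deposited table and the smallest adjusted p of the 25 genes (1.25e-31). Cacna2d3, of the same family, rose from 0.164 to 2.35 RPKM, a log2 fold change of 3.51 in the authors' deposited table (adjusted p = 5.3e-06). Together the alpha2delta genes summed to 3.25 RPKM in ESC and 21.2 in NPC. Cacna2d2, the highest of the family after Cacna2d1 in ESC, lay under the filter at 1.22 and 0.488 RPKM and did not pass the threshold (adjusted p = 0.0667 in the authors' deposited table).

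Of the cytoplasmic beta subunits, 1 of 2 tested genes rose. Cacnb3 rose from 5.19 to 11.8 RPKM, a log2 fold change of 1.06 in the authors' deposited table (adjusted p = 0.00517). Cacnb1, the beta subunit of the skeletal muscle channel, had 5.24 and 3.97 RPKM, with a log2 fold change of -0.51 in the authors' deposited table (adjusted p = 0.366). In ESC the 2 genes were thus at nearly one level, and in NPC Cacnb3 exceeded Cacnb1.

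Of the 6 TARP genes, 4 passed the filter and all 4 rose, where 32.3% of all tested genes did. Cacng5 and Cacng8, under 1 RPKM in ESC, passed it through their NPC level. Cacng7 had the highest TARP level in both cell types, 5.56 and 21.0 RPKM, a log2 fold change of 1.77 in the authors' deposited table (adjusted p = 0.00034). Cacng4 went from 1.57 to 11.5 RPKM, a log2 fold change of 2.76 in the authors' deposited table (adjusted p = 2.94e-05). Cacng5 had the largest rise of all 25 genes, from 0.245 to 6.65 RPKM, a log2 fold change of 4.55 or 23.5-fold in the authors' deposited table (adjusted p = 6.57e-18). Cacng8 went from 0.834 to 4.65 RPKM with less certainty, a log2 fold change of 2.25 in the authors' deposited table (adjusted p = 0.0411). As a result the TARP sum stood at 8.25 RPKM in ESC and 44.4 RPKM in NPC, and Cacng7 supplied 67.3% of it in ESC and 47.3% in NPC.

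The 4 TARP genes that rose sit in 2 gene clusters, and Cacng2 and Cacng3 lie outside them. On chromosome 7 (mm9) the starts of Cacng7 at 3333055, Cacng8 at 3394459 and Cacng6 at 3425423 lie within 92368 bases, and on chromosome 11 those of Cacng1 at 107577790, Cacng4 at 107655778 and Cacng5 at 107772676 lie within 194886 bases. Cacng1 and Cacng6 encode true calcium channel gamma subunits, of skeletal muscle in the case of Cacng1. Both lay under the filter: Cacng6 had 0.885 and 0.638 RPKM (adjusted p = 0.807 in the authors' deposited table) and Cacng1 0.0441 and 0.208 RPKM without an adjusted p. In each cluster the 2 TARP genes thus rose and the gamma subunit gene beside them was not tested. Whether levels differ between neighbours beyond their spread could not be tested on pooled values.

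The sequences just upstream of 2 rising TARP genes, Cacng5 on chromosome 11 and Cacng7 on chromosome 7, and of Cacng6, a neighbour of Cacng7, are shown for comparison, since the 3 genes belong to 1 family and did not share a call. They are the 250 bases before the most upstream RefSeq start in GRCm38.p6, on the gene's strand, with the dinucleotide CG in capitals: chr11:107915056-107915305 (minus strand) for Cacng5, chr7:3332575-3332824 (plus strand) for Cacng7 and chr7:3424412-3424661 (plus strand) for Cacng6. These coordinates are of another build than the mm9 starts above.
Cacng5: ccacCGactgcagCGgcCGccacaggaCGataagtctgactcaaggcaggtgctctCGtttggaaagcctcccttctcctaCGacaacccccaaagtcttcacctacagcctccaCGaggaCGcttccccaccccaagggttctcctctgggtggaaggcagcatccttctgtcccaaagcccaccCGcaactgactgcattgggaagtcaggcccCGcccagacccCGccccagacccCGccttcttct
Cacng7: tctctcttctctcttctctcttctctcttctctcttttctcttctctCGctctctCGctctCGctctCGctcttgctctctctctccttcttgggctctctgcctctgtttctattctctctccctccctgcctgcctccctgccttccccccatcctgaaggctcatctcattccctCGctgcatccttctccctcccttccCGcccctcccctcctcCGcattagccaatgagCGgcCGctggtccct
Cacng6: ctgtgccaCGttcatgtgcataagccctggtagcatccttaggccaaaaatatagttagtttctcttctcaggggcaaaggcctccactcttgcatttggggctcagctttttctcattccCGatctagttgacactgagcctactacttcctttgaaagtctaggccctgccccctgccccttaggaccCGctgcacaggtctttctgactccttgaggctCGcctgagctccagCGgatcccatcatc

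CG, which reads the same on both strands, occurred 12 times before Cacng5, 9 times before Cacng7 and 5 times before Cacng6. The window of Cacng8, which also rose, held 0 CG. Of 27025 genes with a RefSeq window of this length, 91.7% held at least 1 CG, and 33.8%, 40.8% and 55.5% held as many as these 3 genes or more. The observed over expected CG ratio was 0.550, 0.687 and 0.300 in the same order, against a median of 0.379 over all windows. Windows were matched for 52 of the 66 channel genes, whose median ratio was 0.390. The 9 risen genes with a window had a median of 0.687 and the 33 genes under the exon filter one of 0.309. The 4 tested genes without a call had a median of 0.515, and the 2 fallen genes one of 0.447. A ratio above 0.6 was found in 5 of the 9 risen genes, in 2 of the 4 without a call, in 0 of the 2 fallen genes, in 34.6% of all 52 channel genes and in 34.5% of all windows. Which starts these cells use was not measured, and the ratios are a description of the windows.

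Of the TRP channels, Trpm7, a magnesium- and calcium-permeable channel fused to a kinase, dominated the group with 53.7 and 58.8 RPKM, with a log2 fold change of -0.03 in the authors' deposited table (adjusted p = 0.91). It supplied 93.6% of the TRPM sum in ESC and 86.7% in NPC. Trpm4, a calcium-activated channel for monovalent cations, rose from 3.22 to 6.90 RPKM, a log2 fold change of 0.94 in the authors' deposited table (adjusted p = 0.0295).

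The channels of the TRPC family open downstream of phospholipase C. Trpc1 rose from 1.55 to 6.30 RPKM, a log2 fold change of 1.85 in the authors' deposited table (adjusted p = 0.000493). Trpc2, the channel of the rodent vomeronasal organ, had 9.74 and 7.57 RPKM and was not called in the authors' deposited table (log2 fold change -0.49, adjusted p = 0.17). Its level is uncertain as a level of Trpc2: in the GRCm38 annotation 95.4% of its exon bases also belong to the readthrough gene Xntrpc on the same strand. No TRPV gene passed the filter, with sums over 6 genes of 2.24 and 1.75 RPKM.

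The TRPC-binding protein Trpc4ap, a subunit of a ubiquitin ligase, rose from 18.5 to 40.9 RPKM, a log2 fold change of 1.02 in the authors' deposited table (adjusted p = 0.000166). The other 13 risen genes encode channel subunits or TARPs.

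Of the HCN channels, 1 of 2 tested genes fell. Hcn2, a pacemaker channel of heart and brain, fell from 2.68 to 0.611 RPKM, a log2 fold change of -2.21 in the authors' deposited table (adjusted p = 0.00136). Under 1 RPKM in NPC, Hcn2 passed the filter through its ESC level. Hcn3 had 0.644 and 1.47 RPKM, with a log2 fold change of 1.00 in the authors' deposited table that did not pass the threshold (adjusted p = 0.265). The exons of Hcn3 overlap those of Pklr on the opposite strand over 17.8% of their bases in GRCm38. Nalcn stayed under the filter at 0.312 and 0.782 RPKM.

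The 37 genes outside the test ranged from 0.00449 to 1.22 RPKM in ESC (median 0.0940) and from 0.0944 to 1.54 RPKM in NPC (median 0.408). In NPC only 3 of them, Cacna1b, Cacnb4 and Trpm6, exceeded the 95th percentile of receptor genes; they are named after their values were seen. Despite the low levels, 6 had an adjusted p under 0.05 in the authors' deposited table, all as higher in NPC, and 50% of all genes with an adjusted p were called without a filter (25.8% higher, 24.2% lower). In NPC, 2 of those 6 genes exceeded the 95th percentile of receptor genes, and the receptor genes themselves had a median of 0.279 RPKM against 0 in ESC.

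**Figure D3:**
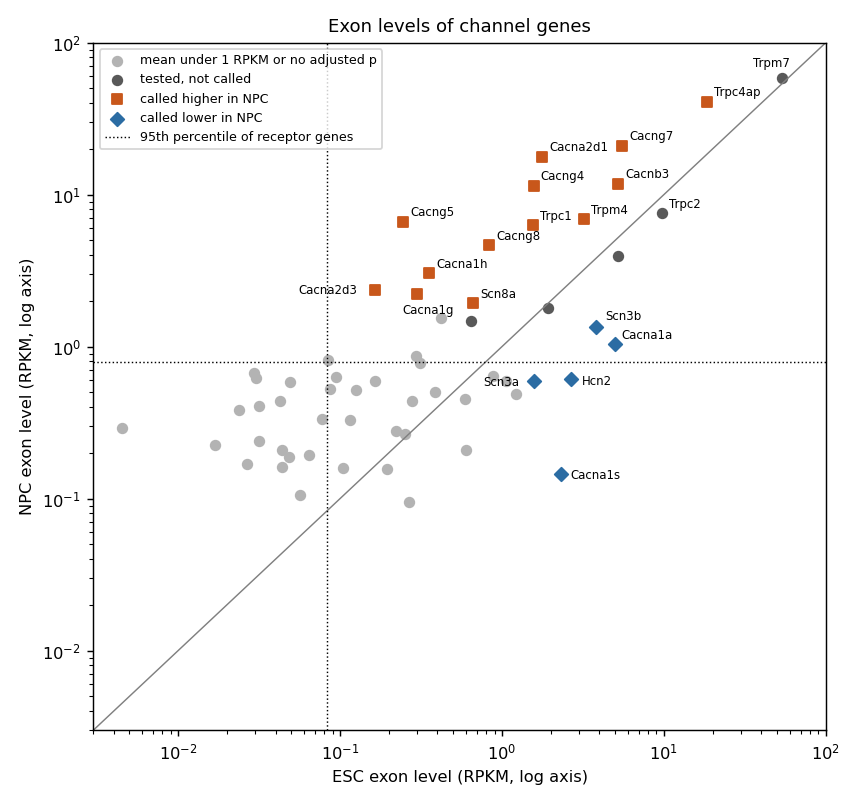
Exon levels of channel genes with an exon value, ESC on the horizontal and NPC on the vertical axis (RPKM, both log), with the line of equality and dotted lines at the 95th percentile of receptor genes. Risen genes (squares) lie above the line and the 5 fallen genes (diamonds) below it; pale circles are the 37 genes outside the test, most of them under the horizontal dotted line.

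Introns gave a second measurement, with replicates. Because ribosome-depleted total RNA holds unspliced transcripts, intron reads track RNA that has not yet been spliced, together with any background. Channel genes have long introns: a median total of 59194 bases over 62 genes with a single solved length, against 16237 over all genes, and 35.5% of them exceed 100 kb, against 9.72%. The channel genes gathered 10591 and 9305 intron reads in the ESC replicates, 39644 in NPC replicate 1 and 14371 in NPC replicate 2. These totals include 4 genes with several possible lengths, whose reads are upper values.

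Their median intron level was 0.134 and 0.0775 RPKM in ESC, 0.954 in NPC replicate 1 and 0.171 in NPC replicate 2. These medians were close to the pooled receptor level of each replicate. Within 1.5 times of that level stood 28 and 12 genes in the ESC replicates, 44 in NPC replicate 1 and 24 in NPC replicate 2. More than 2 times above it stood 25 and 26 genes in ESC, 6 in NPC replicate 1 and 16 in NPC replicate 2. The 6 were above in both NPC replicates, where 30% of all genes were, and in all 4 replicates: Cacng7, Cacng8, Trpc2, Trpc4ap, Trpm4 and Trpm7.

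Intron levels of both NPC replicates exceeded those of both ESC replicates in 46 of the 66 genes, against 41.8% of all genes. In 27 of these 46 the value of NPC replicate 2 was at or below its receptor level, and in 11 it was more than 2 times above. Both ESC replicates exceeded both NPC replicates in 6 genes, against 28.8% of all genes, among them Cacnb1, Hcn2, Scn3b, Trpc2 and Trpm4. The remaining 14 overlapped. Cacng1 had 0 reads in ESC replicate 1, which allows up to 0.0431 RPKM, and Trpv6 had 0 reads in ESC replicate 2, which allows up to 0.0359 RPKM. These limits are the level of 3 reads and cover counting error only.

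**Figure D4:**
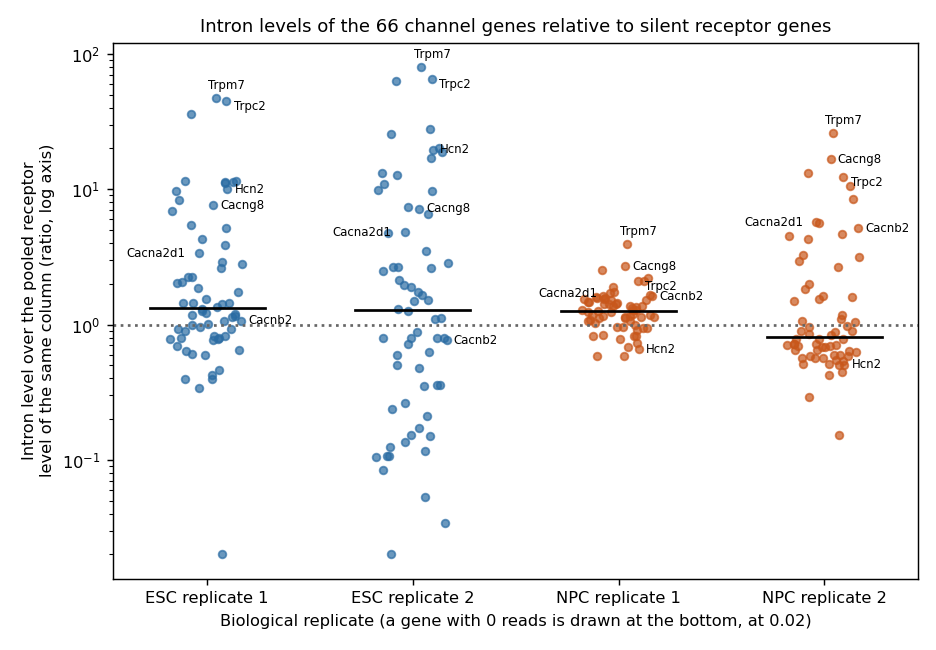
Intron level of each of the 66 genes divided by the pooled receptor level of the same replicate, on a log axis, for the 4 biological replicates. The bar is the median over genes and the dotted line a ratio of 1. Most genes of NPC replicate 1 crowd around the line, 6 exceed 2 times the receptor level there, and 16 do so in NPC replicate 2.

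Only 7 of the 66 genes reached a mean intron level of 1 RPKM and were tested, with limma on log2(RPKM + 1) over 8811 genes and Benjamini-Hochberg adjustment. One rose and 1 fell, where 47.3% of all tested genes were called, 13.2% as higher and 34% as lower; 2 genes had an unadjusted p under 0.05. The median log2 fold change was -0.20 for the 7 genes and -0.43 for all tested genes. When the 4 replicates were scaled to a common median, the median of all genes came to -0.05, and the share of higher genes among all calls from 28% to 49.3%. For these 7 genes values from both scalings are given; the other intron values are at the deposited scaling alone.

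Cacng8 had intron levels of 0.775 and 0.435 RPKM in the ESC replicates and of 2.03 and 3.51 RPKM in the NPC replicates. Both NPC values lay above both ESC values. With both ESC values under 1 RPKM, Cacng8 passed the intron filter through its NPC level. Its log2 fold change was 1.21 with a standard error of 0.22 (limma adjusted p = 0.00113), and 1.51 after scaling (limma adjusted p = 0.00183). The call was lost without ESC replicate 2 (limma adjusted p = 0.059) and without a filter on low values (limma adjusted p = 0.0844). Exons and introns of Cacng8 were thus both higher in NPC, and both passed their filter through the NPC level.

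Trpc2 had intron levels of 4.58 and 3.96 RPKM in ESC and of 1.58 and 2.60 RPKM in NPC. The groups did not overlap, with ESC the higher. Its log2 fold change was -0.79 with a standard error of 0.27 (limma adjusted p = 0.0338), and -0.38 after scaling, where the call was lost (limma adjusted p = 0.0584). It was also lost without ESC replicate 1 (limma adjusted p = 0.448), without ESC replicate 2 (limma adjusted p = 0.368) and without a filter on low values (limma adjusted p = 0.132).

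The other 5 tested genes were not called. Trpm4 had 3.69 and 3.80 RPKM in ESC and 1.91 and 2.77 RPKM in NPC, a log2 fold change of -0.52 as deposited (limma adjusted p = 0.122) and of -0.11 after scaling. Its intron groups did not overlap and ESC was the higher, while its pooled exon level was the higher in NPC; the difference between exon and intron was not tested. Trpm7 had 4.78 and 4.84 RPKM in ESC and 2.96 and 5.45 RPKM in NPC, so that the ESC values fell between the NPC values. Its log2 fold change was -0.20 as deposited (limma adjusted p = 0.67) and 0.24 after scaling. Cacnb1, with 1.15 and 1.69 RPKM in ESC and 0.970 and 0.985 RPKM in NPC, came to -0.28 as deposited (limma adjusted p = 0.227) and 0.02 after scaling.

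Cacng7 and Trpc4ap were called after scaling alone among these fits of all 4 replicates. For Cacng7, introns gave 1.17 and 1.14 RPKM in ESC and 1.66 and 1.78 RPKM in NPC, without overlap. Its log2 fold change was 0.33 (limma adjusted p = 0.139) and became 0.66 after scaling (limma adjusted p = 0.0214). For Trpc4ap, introns gave 1.15 and 1.23 RPKM in ESC and 1.59 and 2.22 RPKM in NPC, again without overlap. Its log2 fold change was 0.40 (limma adjusted p = 0.103) and became 0.73 after scaling (limma adjusted p = 0.00692). After scaling, 3 of the 7 genes were called higher (25.6% of all genes) and none lower (26.4% of all genes); 4 genes had an unadjusted p under 0.05.

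NPC replicate 1, the replicate with the highest receptor level, changed these calls. Without it Cacng7 (limma adjusted p = 0.0228) and Trpc4ap (0.00947) joined Cacng8 as higher, and Trpm4 (0.0466) joined Trpc2 as lower, with 26.6% of all genes called higher and 43.7% lower. Without NPC replicate 2, Cacng7 (limma adjusted p = 0.0368) joined Cacng8 as higher, and Trpm4 (0.00622) and Trpm7 (0.0108) joined Trpc2 as lower, with 14.5% and 60.1% of all genes called. Each of these fits leaves 1 NPC replicate, which is then assumed to vary like the ESC replicates.

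**Figure D5:**
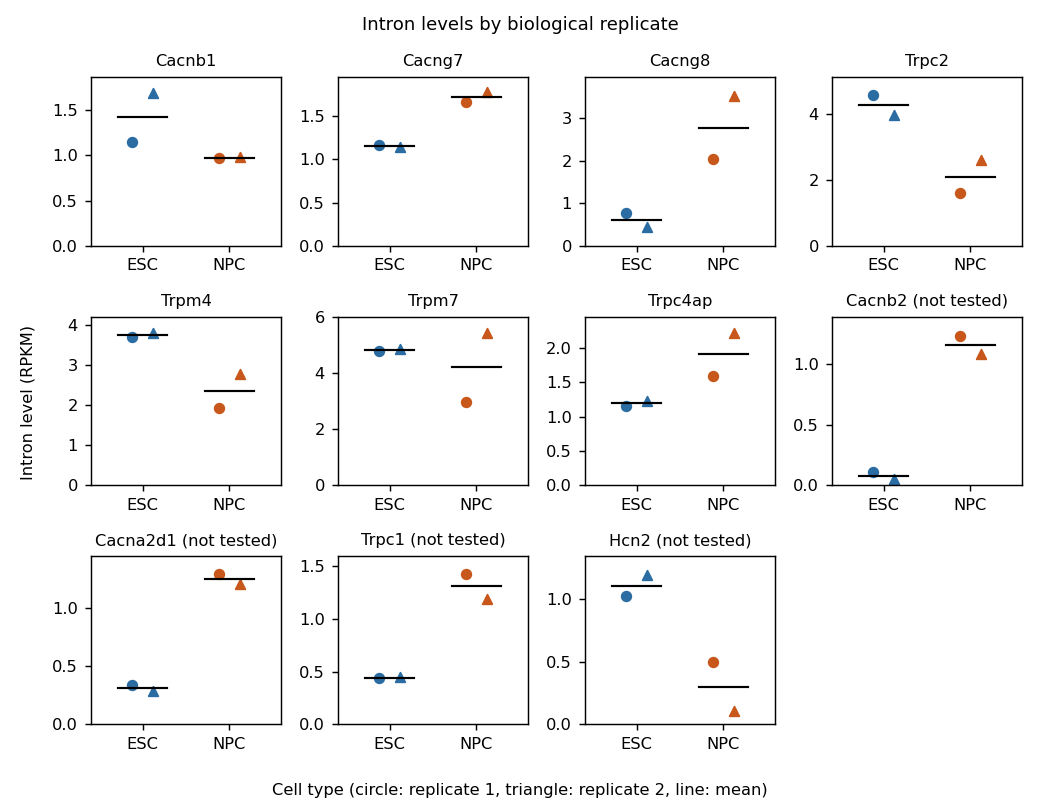
Intron levels in RPKM by biological replicate (circle for replicate 1, triangle for replicate 2, bar for the mean of both) for the 7 tested genes and for 4 genes under the filter. Cacng8 stands higher in both NPC replicates and Trpc2 in both ESC replicates, while the NPC values of Trpm7 lie on either side of its ESC values.

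Several genes under the intron filter had groups well apart; the 4 given here were chosen after their values were seen. Cacna2d1 had 0.341 and 0.291 RPKM in ESC and 1.29 and 1.21 RPKM in NPC, and the NPC values were 1.71 and 5.73 times the receptor level. Trpc1 had 0.439 and 0.446 RPKM in ESC and 1.43 and 1.19 RPKM in NPC, or 1.89 and 5.67 times the receptor level. Cacnb2, a calcium channel beta subunit without an exon value, had 0.109 and 0.0464 RPKM in ESC and 1.23 and 1.09 RPKM in NPC. Its NPC values were 1.63 and 5.16 times the receptor level. In these 3 genes both NPC replicates were near 1 level, and the receptor levels of these replicates differed (0.757 and 0.211 RPKM). How much of each value is background was not tested. Hcn2 had 1.02 and 1.19 RPKM in ESC, but 0.498 and 0.107 in NPC, both below the receptor level of their replicate.

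With the intron filter at 0.5 RPKM, 18 channel genes were tested. Cacna2d1 (limma adjusted p = 0.0106), Cacnb2 (0.0068) and Trpc1 (0.015) then joined Cacng8 as higher, and the genes called lower included Hcn2 (0.031) beside Trpc2. Cacna2d1, Cacnb2 and Trpc1, under 0.5 RPKM in both ESC replicates, passed this filter through their NPC level. Hcn2, under 0.5 RPKM in both NPC replicates, passed it through its ESC level. Among all 11496 genes at this filter, 16.4% were called higher and 26.1% lower. Cacna2d1, Trpc1 and Cacng8 had also risen on exons and Hcn2 had fallen. Of the other genes that rose on exons, Cacnb3, Scn8a, Cacng7 and Trpc4ap were not called on introns at this filter, with log2 fold changes of 0.32, 0.51, 0.33 and 0.40 (limma adjusted p = 0.193, 0.111, 0.11 and 0.0939). Trpm4, which also rose on exons, had a log2 fold change of -0.52 on introns (limma adjusted p = 0.128). Cacna1g, Cacna1h, Cacna2d3, Cacng4 and Cacng5, risen on exons, lay under both intron filters, so their rises have no intron test. Their intron levels were 0.823 to 1.54 times the receptor level in NPC replicate 1 and 1.55 to 3.14 times in NPC replicate 2.

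The other 4 genes that fell on exons lay under the intron filter of 1 RPKM. At 0.5 RPKM, Cacna1a, Cacna1s and Scn3b were tested and not called, with log2 fold changes of -0.30, -0.27 and -0.39 (limma adjusted p = 0.296, 0.412 and 0.218), and Scn3a was not tested. Scn3b had 1.14 and 1.03 RPKM in ESC and 1.03 and 0.246 RPKM in NPC, with ESC the higher by a narrow margin over NPC replicate 1. Cacna1a had 0.983 and 0.796 RPKM in ESC and 0.802 and 0.313 RPKM in NPC, and Cacna1s had 0.843 and 0.667 RPKM in ESC and 0.814 and 0.166 RPKM in NPC. In these 3 genes NPC replicate 2 was the lowest replicate, and NPC replicate 1 was at 1.06 to 1.36 times its own receptor level. Scn3a had 0.227 and 0.161 RPKM in ESC and 1.07 and 0.178 RPKM in NPC, and its groups overlapped.

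Partner proteins of these channels were taken from lists of 56 genes, of which 53 had an exon value and 33 were tested. By the authors' deposited table, there were 18 that rose, 5 that fell and 10 that were not called, where 32.3% and 33.9% of all tested genes rose and fell, and their median log2 fold change was 1.09. Of the sodium channel partners 6 rose and 1 fell of 9 tested. Cntn1, a cell adhesion molecule that binds sodium channels, rose from 0.232 to 130 RPKM, a log2 fold change of 8.97 in the authors' deposited table. Ank2, a membrane skeleton adaptor, rose from 6.38 to 293 RPKM (5.38 in the authors' deposited table), and Nrcam, an adhesion molecule of nodes of Ranvier, from 0.359 to 12.4 RPKM (4.91).

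Of the 4 listed intracellular FGF-like modulators of sodium channels, 2 rose, 1 was under the filter and 1 was not analysed here. Fgf11 rose from 0.218 to 9.93 RPKM (log2 fold change 5.26 in the authors' deposited table) and Fgf12 from 0.0537 to 2.03 RPKM (4.86). Sptbn4, the spectrin of axon initial segments, fell from 3.04 to 0.193 RPKM, a log2 fold change of -4.13 in the authors' deposited table. Scn2a1, the sodium channel alpha subunit outside the symbol pattern, rose from 0.718 to 2.03 RPKM (log2 fold change 1.28, adjusted p = 0.0072 in the authors' deposited table). In NPC, Cntn1 alone had 130 RPKM, against 5.20 for the alpha subunits of the set together.

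Of the NALCN complex, Unc79, a large scaffold of the channel, rose from 0.158 to 7.98 RPKM, a log2 fold change of 5.51 in the authors' deposited table, while Nalcn itself stood at 0.782 RPKM in NPC. Calcium channel regulators were split, with 3 risen and 3 fallen of 10 and a median log2 fold change of -0.06. Cabp1, a calmodulin-like modulator of calcium channels, fell from 23.1 to 0.570 RPKM (log2 fold change -5.54 in the authors' deposited table), and Stac2, an adaptor of L-type channels, from 2.22 to 0.285 RPKM (-3.06).

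Among other TRP and store-operated channel genes 7 rose and 1 fell of 12. Stim2, the sensor of calcium in the endoplasmic reticulum, rose from 16.5 to 141 RPKM (log2 fold change 2.94 in the authors' deposited table), and Tpcn1, an endolysosomal cation channel, from 4.44 to 22.2 RPKM (2.19). Trpa1, the irritant-sensing TRP channel, fell from 1.98 to 0.296 RPKM (log2 fold change -2.95 in the authors' deposited table). No HCN partner was tested, and 1 of 1 tested CatSper gene rose, Catsper2, named here after its value was seen (0.793 to 3.62 RPKM, log2 fold change 1.97 in the authors' deposited table).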

How the data were processed

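Exon and intron tables of ESC and NPC were used as deposited. The exon table holds log2 fold changes, adjusted p-values and RPKM of each cell type that the authors pooled over libraries. The intron table holds RPKM for each biological replicate, in which the authors combined technical libraries. Its header names no unit, which was inferred from these deposited values. Per the submitters' processing notes, DESeq2 1.10.0 and build mm9 were used. Aligner, counter, annotation and use of strand were not given in the sources used here. Exon read counts were not recovered. Intron values solved for whole reads within 0.001 reads in all genes above 0, with 272 genes at 0. Where several intron lengths were possible (1668 genes), the longest was taken, so the reads of these genes are upper values.

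Exon calls were read at an adjusted p under 0.05 and a mean of at least 1 RPKM. Introns were tested with limma 3.58.1 (R 4.3.3) with a mean-variance trend on log2(RPKM + 1), which understates changes of low genes, at a mean of at least 1 RPKM, 2 ESC against 2 NPC replicates, after the script was tested on simulated data. Its p-values rest on the spread between these replicates, which limma draws for each gene towards a trend over all genes tested. The 84 and 64 rows without a gene name were left out. Named with values were all members tested on exons or introns, and partners with an absolute log2 fold change of at least 2; others are marked. Some members enter the counts but are not reported here one by one or drawn by name. The members and lists were chosen with earlier results of these data known. Overlaps of exons and upstream windows come from GRCm38 annotation.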

Additional observations from a re-analysis of the deposited data

How the results depend on the processing

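On exons no replicate could be left out, since the authors deposited pooled values. At a mean of at least 10 RPKM, 3 channel genes were tested, 2 higher and 0 lower. The median exon log2 fold change was 0.97 at a mean of at least 0.5 RPKM, 1.18 without a filter and 1.18 from the ratio of RPKM. On introns, a mean of at least 0.5 RPKM gave 4 higher, 3 lower and a median of 0.057. Without a filter the 1 higher call was Cacnb2 and not Cacng8, 0 were lower, 8 of 66 had an unadjusted p under 0.05, and the median was 0.46. Scaling to a common median gave 3 higher, 0 lower and a median of 0.24, and brought Cacnb1 to 0.024 and Trpm7 to 0.24. The lower count was 0 without the mean-variance trend (limma, 2 with an unadjusted p under 0.05) and with the median of receptor genes subtracted (1). That median was 0.0287 and 0 RPKM in the ESC replicates and 0.748 and 0.0825 RPKM in the NPC replicates. It was below the pooled receptor level in each replicate. Leaving out 1 replicate gave 0 to 3 higher, 0 to 3 lower and medians from -0.29 to 0.15, the last, with Trpm7 at 0.15, without NPC replicate 1; Trpm7 came to -0.55 without NPC replicate 2. A pseudocount of 0.1 and voom on recovered reads kept both counts at 1.

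With the replicate number as a block, the counts were 1 higher and 1 lower, with Cacng8 at 1.21 and Trpc2 at -0.79. Same-numbered replicates share only a number (correlation of deviations 0.019 over 8811 genes). Exon depth is unknown, and on introns the receptor level of NPC replicate 1 limits what can be seen under 1 RPKM.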
